A study of Mus musculus with 12 samples.

Results

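The 45 genes described here are the mouse matrix metalloproteinases (MMPs), the ADAMTS proteases and the TIMPs. They were chosen by name alone: the rows of the count table annotated as protein coding whose symbol is Mmp, Adamts or Timp followed by a number, with a letter suffix allowed and the ADAMTS-like genes left out. This gave 22 Mmp, 19 Adamts and 4 Timp genes among 54532 genes. RNA-seq had been made from 12 tumours grown from B16F10 cells, a pigmented mouse melanoma line, and the comparison addresses what loss of the exonuclease gene Trex1 in the host changes in the tumour. The 6 Ctrl libraries came from hosts of genotype Trex1 wt/fl-R26CreERT2-ki/wt and the 6 iKO libraries from Trex1 fl/fl-R26CreERT2-ki/wt hosts. In both groups the hosts were labelled male and aged 8 to 12 weeks, and both carried CreERT2, a Cre recombinase that tamoxifen activates, at Rosa26, a locus active in nearly all cell types. Both groups received 1000 wild-type B16F10 cells in Matrigel at each injected site, in the skin of either leg, and 1 mg of tamoxifen on each of 3 days from day 5, with harvest on day 14. Ctrl hosts therefore could also lose their floxed copy, and the melanoma cells themselves carried no Cre.

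MMPs are zinc proteases, made as inactive precursors, that cut collagens, gelatin, elastin and many cell surface proteins. ADAMTS proteases are secreted relatives that cut proteoglycans such as versican and aggrecan, trim procollagens or process von Willebrand factor. TIMPs are secreted proteins that bind the active site of MMPs and block it, and TIMP3 also inhibits ADAMTS proteases. In tumours, MMPs and TIMPs are made by tumour cells, fibroblasts and infiltrating leukocytes alike.

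The libraries held 29.8 to 45.8 M counts each. The sorted tissue is labelled negative for CD45 and CD31, while the protocol text joins them with "or". Ptprc, which encodes CD45, reached 0.158 to 15.6 CPM (counts scaled to 1e6 per library) in Ctrl and 17.4 to 345 in iKO, so leukocyte RNA was present in the sorted material. The pigment cell genes of the melanoma line were abundant in every library, their summed level running from 28505 to 29140 CPM in Ctrl and from 22214 to 29701 in iKO. No counts stood under the name Trex1 in any of the 12 libraries, so this gene could not check the genotype labels. Whether its locus was counted at all was not tested. In iKO 2 and iKO 3, Xist stood at 219 and 117 CPM and Ddx3y at 0.447 and 0, against the label of male hosts. In the other libraries Xist reached at most 8.39, in iKO 4. Ddx3y was at 1.43 to 3.67 CPM in Ctrl and 3.94 in iKO 1. It was at 25.7, 19.4 and 17.4 in iKO 4, iKO 5 and iKO 6. Ctrl 5 and iKO 1 also stood apart, with 522 and 295 CPM summed over 14 macrophage and monocyte markers, where the other Ctrl libraries had 18.2 to 61.6 and the other iKO libraries 1665 to 2729. The labels do not tie libraries to mice, and since both legs were injected a mouse could have given more than 1 library; p-values measure only the spread between these libraries. In bulk tissue, fewer cells of a type and less RNA per cell cannot be told apart.

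More of the protease and inhibitor genes were higher than lower in iKO tumours. Of the 45 genes, 32 had enough counts to be tested, and 15 of these were higher and 3 lower in iKO by edgeR's quasi-likelihood test at a Benjamini-Hochberg adjusted p of 0.05. Those shares are 46.9% and 9.38%, beside 25% of all 16164 tested genes called higher and 21.4% called lower. The median log2 fold change was 0.87 over the 32 genes and 0.02 over all tested genes. All 6 iKO libraries lay above all 6 Ctrl libraries for 5 of the 32 genes (15.6%, against 11.8% of all tested genes) and below them for 2 (6.25%, against 11.1%). The 14 genes that missed the threshold all had positive estimates. By family, 6 of 15 tested Mmp genes rose and 2 fell, 8 of 14 Adamts genes rose and 1 fell, and 1 of 3 Timp genes rose.

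**Figure D1:**
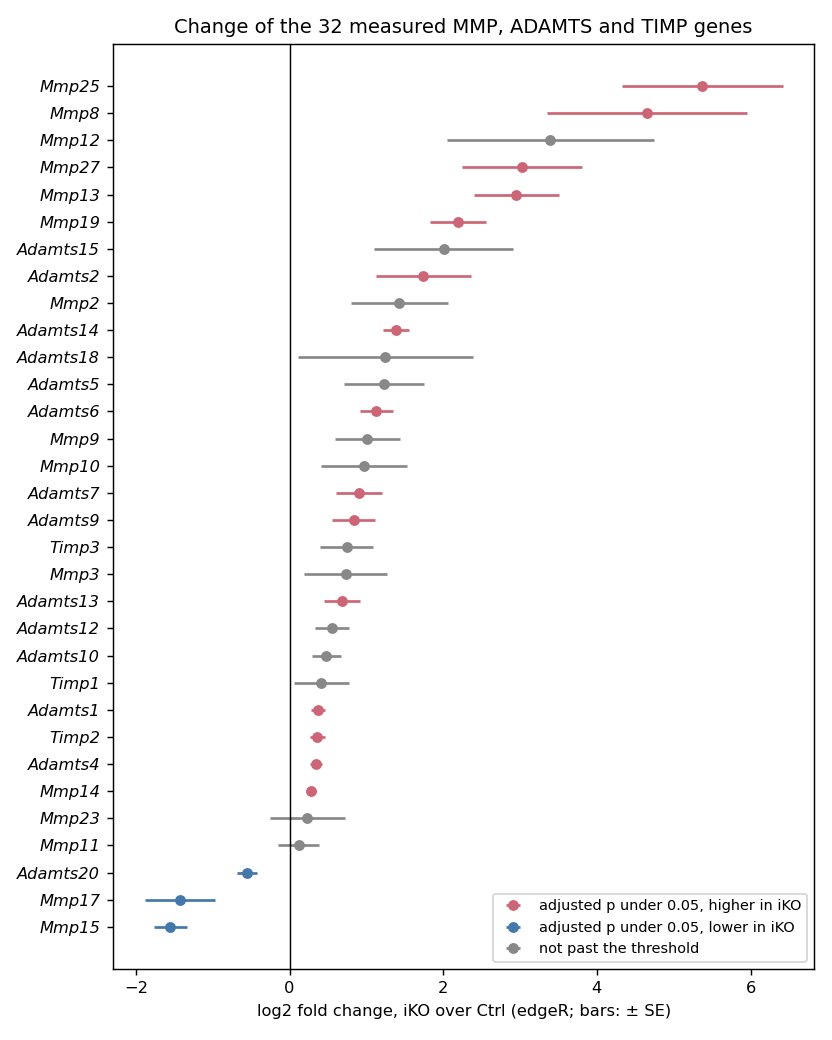
Log2 fold change, iKO over Ctrl, of the 32 tested genes (x axis) with bars of 1 standard error either side; the y axis orders the genes by that change, and colour marks those called higher, lower or neither. Mmp25 at 5.37 and Mmp8 at 4.65 lie farthest to the right, and Mmp15 at -1.55 and Mmp17 at -1.43 farthest to the left.

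Per kilobase of gene length, 1 gene of each family stood above the rest. Mmp14, which encodes MT1-MMP, the membrane-bound collagenase that also activates proMMP-2, made up 66.4% of the summed CPM per kilobase of the Mmp genes in Ctrl and 47.8% in iKO. Adamts1, a versican- and aggrecan-cutting protease, made up 53.0% and 46.6% of the Adamts sum. Timp2, which inhibits MMPs and also bridges proMMP-2 to MT1-MMP, made up 72.1% and 70.8% of the Timp sum. Summed CPM of the Mmp genes ran from 351 to 419 in Ctrl and from 420 to 812 in iKO. The Adamts sum ran from 336 to 392 and from 445 to 752, and the Timp sum from 267 to 295 and from 279 to 480. The Mmp and Adamts sums did not overlap between groups, whereas the Timp sums did. For Mmp the ranges nearly touched, with 419 CPM in Ctrl 5 and 420 in iKO 1.

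The leading gene of each family, and Adamts4, rose by small amounts with narrow spread. Mmp14 had 282, 288 and 317 CPM in Ctrl (lowest, median and highest library, the order used below) and 318, 339 and 413 in iKO. Every iKO library lay above every Ctrl library, though the highest Ctrl value, in Ctrl 5, came within 1 CPM of the lowest in iKO. The log2 fold change was 0.27 ± 0.07 (SE, edgeR adjusted p = 0.00387). Adamts1 had 166, 187 and 193 CPM in Ctrl and 197, 228 and 291 in iKO, again without overlap, and the log2 difference was 0.37 ± 0.09 (edgeR adjusted p = 0.00473). Adamts4, another aggrecan- and versican-cutting protease, went from 50.8, 62.1 and 65.0 CPM to 65.5, 76.3 and 89.1. Its groups were also apart, and the log2 difference was 0.34 ± 0.08 (edgeR adjusted p = 0.00300). Timp2 had 232, 239 and 256 CPM in Ctrl and 239, 303 and 409 in iKO. Here the lowest iKO library, iKO 3, sat among the Ctrl libraries and the other 5 lay above them, for a log2 difference of 0.36 ± 0.10 (edgeR adjusted p = 0.00902).

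Of the classical secreted collagenases, the 2 tested, Mmp13 and Mmp8, rose. Mmp13, which cuts fibrillar collagen including type II, had 1.24, 2.04 and 5.24 CPM in Ctrl and 3.00, 22.6 and 28.6 in iKO. The groups overlapped only through Ctrl 5 and iKO 1, which held the highest Ctrl and the lowest iKO value. The log2 fold change was 2.95 ± 0.56 (edgeR adjusted p = 0.00149), and 3.57 with those libraries left out. Mmp8, the collagenase known from neutrophil granules, had 0, 0 and 0.662 CPM in Ctrl and 0, 2.58 and 6.34 in iKO. Of its 26 Ctrl counts, 24 came from Ctrl 5, and iKO 1 had none. The log2 fold change was 4.65 ± 1.30 (edgeR adjusted p = 0.0128) and 7.82 without Ctrl 5, where 2 Ctrl counts remained against 575 in iKO. The ratio of those shares was 299, with an interval of 82.3 to 2473 (95%, counting error only). By limma voom the adjusted p of Mmp8 was 0.0764.

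Mmp25, Mmp12 and Mmp19 had the same libraries at the edge of their groups. Mmp25, a membrane-type MMP held by a GPI anchor and known from leukocytes, had 0, 0.0965 and 0.883 CPM in Ctrl and 0.517, 8.97 and 17.1 in iKO. Ctrl 5 was again the highest Ctrl library and iKO 1 the lowest iKO library. The log2 fold change was 5.37 ± 1.04 (edgeR adjusted p = 0.00183) and 6.55 without Ctrl 5, while limma voom gave an adjusted p of 0.0539. Mmp12, the macrophage elastase, had 0, 0.165 and 17.8 CPM in Ctrl and 4.39, 38.7 and 73.6 in iKO. Only Ctrl 5 reached into the iKO range, and the log2 fold change of 3.40 ± 1.34 missed the threshold (edgeR adjusted p = 0.0606). Without Ctrl 5 it was 5.96 and passed (edgeR adjusted p = 0.00205), and without iKO 1 it was 3.64 and passed (edgeR adjusted p = 0.0459). With all libraries kept, Mmp12 passed by DESeq2 (3.38, DESeq2 adjusted p = 0.0237) and by limma voom (6.39, voom adjusted p = 0.0377). Mmp19, which cuts basement membrane proteins, had 1.72, 2.80 and 5.99 CPM in Ctrl and 5.14, 15.9 and 20.1 in iKO, and a log2 difference of 2.19 ± 0.36 (edgeR adjusted p = 0.000494). Overlap again came from Ctrl 5 and iKO 1. Of the exon bases of Mmp19, 28.3% are shared with other genes, mainly with Tmem198b, a gene with 1490 Ctrl and 1496 iKO counts; without strand, reads from the shared bases cannot be assigned.

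Markers of several leukocyte types moved with these genes. The same edgeR test called 25% of all tested genes higher and 21.4% lower. Of 14 macrophage and monocyte markers, 12 were higher in iKO, with a median log2 fold change of 4.39. Their sum was 18.2 to 522 CPM in Ctrl and 295 to 2729 in iKO. All 12 T cell and cytotoxic lymphocyte markers were higher (median 6.82). These summed to 4.19 to 13.9 CPM in Ctrl and 25.2 to 339 in iKO. All 5 tested dendritic cell markers were higher (median 4.46). In each of these lists Ctrl 5 had the highest Ctrl sum and iKO 1 the lowest iKO sum. Of 10 neutrophil markers, 3 had enough counts and 2 were higher; Ly6g was at 0 in all Ctrl libraries and at most 0.118 CPM in iKO, and Mpo was at 0 in all iKO libraries. Among 10 leukocyte genes, 9 were higher. Their mean log2 level ran from 0.57 to 4.41 in Ctrl and from 4.01 to 7.39 in iKO. Only Ctrl 5 and iKO 1 made these ranges overlap. As a covariate this level nearly coincides with group, so a fit that holds both cannot separate them. With the mean log2 level of those 10 genes as a covariate, 2 of the 32 genes were called higher, Adamts1 (log2 fold change 0.73, edgeR adjusted p = 0.0121) and Adamts4 (0.64, edgeR adjusted p = 0.0166), and 0 lower. At an unadjusted p of 0.05 the counts in that fit were 4 and 2, beside 2134 and 2360 of all 16164 tested genes. By adjusted p, 1060 of all genes were higher and 1105 lower, and Mmp8, Mmp12, Mmp13, Mmp25 and Mmp27 were among the genes with negative estimates. The part of leukocyte RNA in these changes was not tested.

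**Figure D2:**
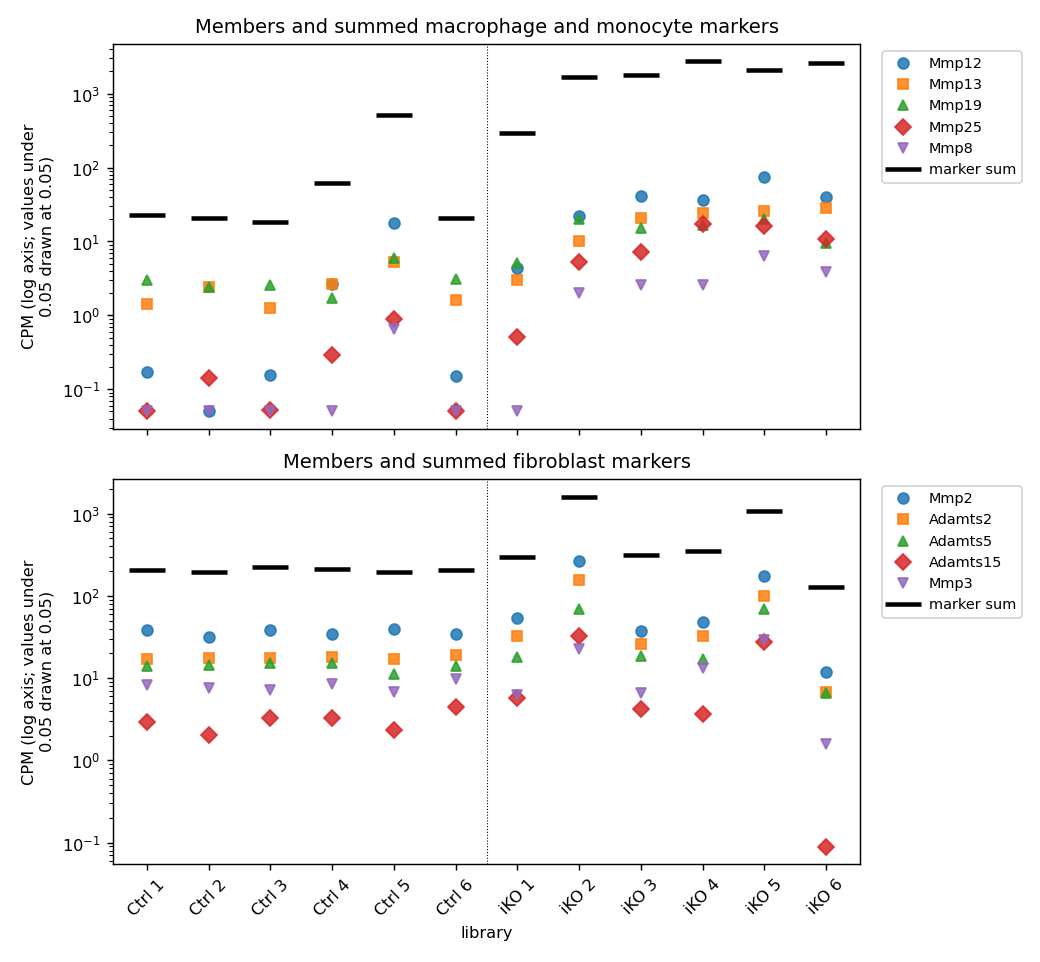
Level in each of the 12 libraries (x axis; CPM on a log axis, values under 0.05 drawn at 0.05), with black bars for the summed level of a marker list; the upper panel shows Mmp12, Mmp13, Mmp19, Mmp25 and Mmp8 with macrophage and monocyte markers, and the lower panel Mmp2, Adamts2, Adamts5, Adamts15 and Mmp3 with fibroblast markers. In the upper panel the marker sums of Ctrl 5 (522 CPM) and iKO 1 (295) lie between those of the other libraries of the 2 groups, and in the lower panel iKO 2 (1608) and iKO 5 (1075) lie above all others and iKO 6 (130) below.

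A run of 9 Mmp genes lies on chromosome 9, between positions 7272514 and 7699585 (mm10), a span of 427 kb. In map order they are Mmp13, Mmp12, Mmp1b, Mmp3, Mmp10, Mmp8, Mmp27, Mmp20 and Mmp7. Of the 6 tested, Mmp13, Mmp8 and Mmp27 rose, and Mmp12, Mmp3 and Mmp10 missed the threshold. Over all tested genes 25% were called higher. Mmp27, an MMP of poorly known substrates, had 0.0935, 0.165 and 0.800 CPM in Ctrl and 0.194, 1.64 and 6.29 in iKO. Its groups overlapped through Ctrl 4, Ctrl 5 and iKO 1, and its log2 fold change was 3.02 ± 0.78 (edgeR adjusted p = 0.00733), or 1.87 without iKO 2 and iKO 5 (edgeR adjusted p = 0.0428). The stromelysins Mmp3 and Mmp10, which cut proteoglycans and activate other proMMPs in the matrix, both missed the threshold. Mmp3 had 6.79, 7.94 and 9.79 CPM in Ctrl and 1.57, 10 and 29.5 in iKO, with the iKO libraries on both sides of the Ctrl range (log2 fold change 0.73, edgeR adjusted p = 0.295). Mmp10 had 0.219, 0.389 and 0.855 CPM in Ctrl and 0.129, 0.771 and 1.80 in iKO (0.97, edgeR adjusted p = 0.174). The remaining genes of the cluster were silent or nearly so, with 3 counts in all for Mmp1b and 0 for Mmp20 and Mmp7.

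**Figure D3:**
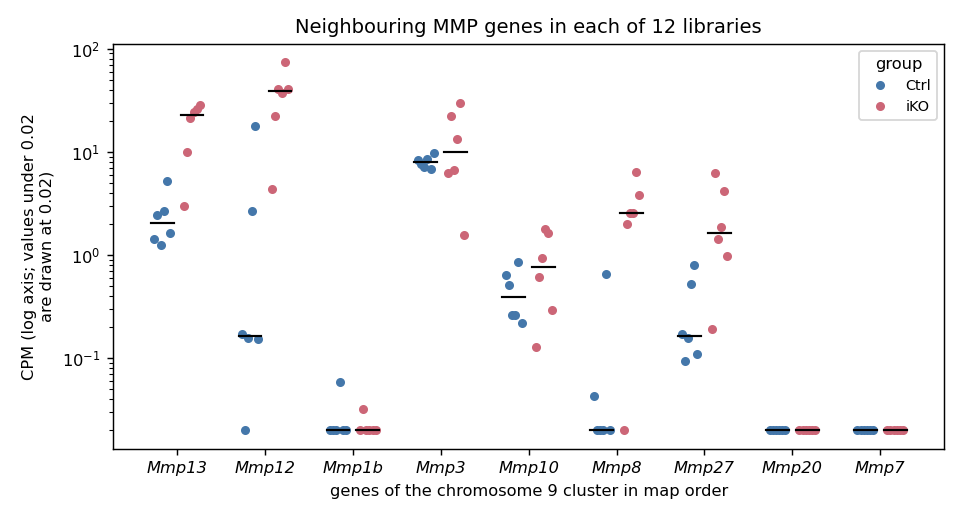
Level in each library (CPM on a log axis, values under 0.02 drawn at 0.02) of the 9 genes of the chromosome 9 cluster in map order; points are libraries coloured by group, and black lines are group medians. Mmp13, Mmp12, Mmp8 and Mmp27 have most iKO libraries above the Ctrl libraries, Mmp3 has iKO libraries from 1.57 to 29.5 CPM around a Ctrl range of 6.79 to 9.79, and Mmp20 and Mmp7 had no counts.

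Genes of the cluster differ in the letters just upstream of their starts. The promoter sequences that follow, from RefSeq (GRCm38.p6, plus strand, 5′ to 3′), run up to the base before the gene start, taking the RefSeq start or that of the count table, whichever comes first (for Mmp8 the RefSeq start), and are shown because Mmp13 and Mmp8 rose, Mmp3 did not pass the test and Mmp15, on chromosome 8, fell. Capitals mark TGANTCA, the letters bound by AP-1, and TATAAA, the TATA box.
Mmp13 (chr9:7272264-7272513): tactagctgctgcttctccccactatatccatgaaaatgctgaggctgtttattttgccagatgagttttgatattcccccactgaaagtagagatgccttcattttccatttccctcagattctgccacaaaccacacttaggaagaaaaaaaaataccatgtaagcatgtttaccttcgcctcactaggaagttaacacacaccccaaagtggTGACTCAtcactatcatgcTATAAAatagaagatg
Mmp3 (chr9:7445572-7445821): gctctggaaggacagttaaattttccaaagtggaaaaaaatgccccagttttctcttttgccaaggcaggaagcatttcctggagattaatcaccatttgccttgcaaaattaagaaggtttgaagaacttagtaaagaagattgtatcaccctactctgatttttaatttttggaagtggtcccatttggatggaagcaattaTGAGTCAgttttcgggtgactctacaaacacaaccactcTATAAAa
Mmp8 (chr9:7558179-7558428): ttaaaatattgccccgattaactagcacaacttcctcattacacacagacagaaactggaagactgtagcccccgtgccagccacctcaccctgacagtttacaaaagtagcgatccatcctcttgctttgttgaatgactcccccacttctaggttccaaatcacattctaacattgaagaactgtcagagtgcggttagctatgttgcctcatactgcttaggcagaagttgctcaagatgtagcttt
Mmp15 (chr8:95352046-95352267): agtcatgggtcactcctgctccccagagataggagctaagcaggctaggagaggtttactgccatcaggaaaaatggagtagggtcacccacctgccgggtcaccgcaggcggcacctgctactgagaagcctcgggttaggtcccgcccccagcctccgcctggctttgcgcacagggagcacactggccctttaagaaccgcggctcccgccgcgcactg

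Mmp13 and Mmp3 each hold 1 TGANTCA match, 35 and 46 bases before the start, and a TATAAA match after it, at 16 and 7 bases. The windows of Mmp8 and Mmp15 hold neither. Of the 45 genes, 31 had a promoter in the RefSeq table. Over 250 bases upstream, read on both strands, 6 of the 31 (19.4%) held TGANTCA, against 6.75% of 32851 promoters of all genes, and all 6 (Mmp10, Mmp13, Mmp1b, Mmp20, Mmp3 and Mmp7) lie in the chromosome 9 cluster. TATAAA was found in 8 (25.8%, against 12.4%) and AGGAAG, the letters of a PEA3 site bound by ETS factors, in 13 (41.9%, against 29.5%). Of the 11 genes that rose and had a promoter, 1 held TGANTCA, so genes with and without the match were among those that rose. A match describes the letters only.

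Membrane-type MMPs went both ways. Mmp15, which encodes MT2-MMP, a transmembrane collagenase, had 3.82, 4.61 and 5.06 CPM in Ctrl and 0.883, 1.45 and 2.39 in iKO. No iKO library reached the Ctrl range, and the log2 fold change was -1.55 ± 0.22 (edgeR adjusted p = 0.000105). Mmp17, the other GPI-anchored MMP, had 1.55, 2.14 and 2.68 CPM in Ctrl and 0.0885, 0.873 and 1.41 in iKO. Its groups did not overlap either, and the log2 difference was -1.43 ± 0.46 (edgeR adjusted p = 0.0194). Both fell while Mmp14 and Mmp25, 1 of each anchor type, rose. Most pigment cell genes moved the same way as Mmp15 and Mmp17 by less. By the edgeR test 7 of 10 were lower and 1 higher, beside 21.4% and 25% of all tested genes. Their median log2 fold change was -0.37. In iKO 1 their sum, 29701 CPM, lay above all Ctrl libraries, while Mmp15 and Mmp17 there stood at 2.39 and 0.679, below them. The part of the share of melanoma cells in the falls of Mmp15 and Mmp17 was not tested. Mmp16 and Mmp24, the remaining transmembrane members, had 6 and 5 counts over all libraries.

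**Figure D4:**
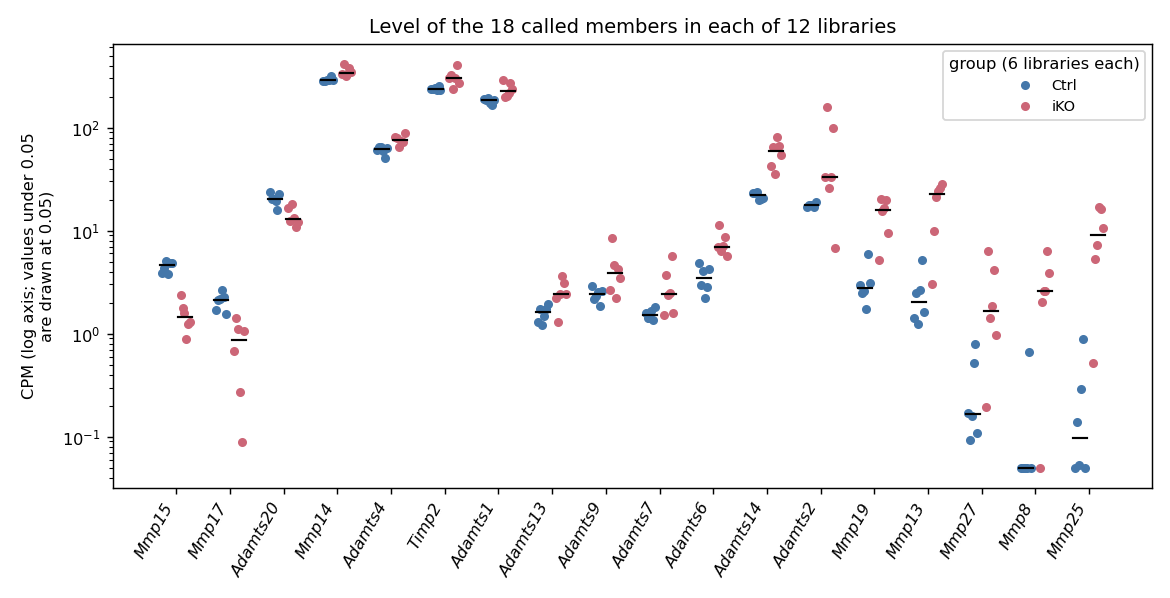
Level in each of the 12 libraries (CPM on a log axis, values under 0.05 drawn at 0.05) of the 18 genes past the threshold, ordered on the x axis by log2 fold change; points are libraries coloured by group, and black lines are group medians. Mmp15 and Mmp17 have all iKO libraries below the Ctrl libraries, Adamts14 and Adamts6 all above them, and in Mmp8, Mmp13, Mmp19 and Mmp25 the lowest iKO library, iKO 1, lies below the highest Ctrl library.

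Among the ADAMTS genes, the procollagen N-proteinases, which remove the amino-terminal propeptides of fibrillar procollagens, rose. Adamts14 had 19.7, 22.0 and 23.7 CPM in Ctrl and 35.6, 59.6 and 80.2 in iKO. The groups were widely apart and its log2 fold change of 1.39 ± 0.17 had the smallest adjusted p of the 32 genes (edgeR, 4.46e-05). Adamts2 had 16.96, 17.6 and 19.05 CPM in Ctrl and 6.82, 32.9 and 157 in iKO. Its Ctrl libraries were nearly alike while iKO ran from below to far above them, and the log2 fold change of 1.74 ± 0.61 passed narrowly (edgeR adjusted p = 0.0388). That call was lost when any 1 Ctrl library, iKO 2 or iKO 5 was left out, with edgeR adjusted p from 0.0617 to 0.0986, and the log2 fold change fell to 0.48 without iKO 2 and iKO 5 together. The third such gene, Adamts3, had 56 counts in all and was not tested.

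Of the 6 tested proteoglycan-cutting ADAMTS genes, 3 rose, 1 fell and 2 missed the threshold. Over all tested genes 25% were called higher and 21.4% lower. Adamts20, which acts on versican and is known for a role in the colonization of skin by pigment cells, fell. It had 15.8, 20.2 and 23.9 CPM in Ctrl and 10.8, 12.9 and 18.03 in iKO, an overlap made by Ctrl 5 at the low end and iKO 3 and iKO 1 at the high end (log2 fold change -0.55 ± 0.13, edgeR adjusted p = 0.00398). Adamts9, a versican-cutting protease needed for cilia, had 1.88, 2.43 and 2.89 CPM in Ctrl and 2.21, 3.87 and 8.43 in iKO. Its groups overlapped, and the log2 difference was 0.84 ± 0.28 (edgeR adjusted p = 0.0248). The call was lost without iKO 2 (0.53, edgeR adjusted p = 0.0621). Adamts5, the main aggrecanase of mouse cartilage, had 11.3, 14.3 and 15.2 CPM in Ctrl and 6.56, 18.1 and 69.2 in iKO (log2 fold change 1.23, edgeR adjusted p = 0.0784). Adamts15, a versican- and aggrecan-cutting relative, had 2.06, 3.09 and 4.40 CPM in Ctrl and 0.0890, 4.99 and 32.3 in iKO (2.00 ± 0.90, edgeR adjusted p = 0.0931). In both, iKO 2 and iKO 5 were far above and iKO 6 below the Ctrl range. Without iKO 6 both passed, at edgeR adjusted p = 0.0204 and 0.0134, whereas without iKO 2 and iKO 5 their log2 estimates were 0.084 and 0.16 (edgeR adjusted p = 0.813 and 0.879).

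The remaining ADAMTS genes were expressed at low levels or changed little. Adamts6, a protease acting on microfibril proteins, had 2.21, 3.50 and 4.84 CPM in Ctrl and 5.72, 7.01 and 11.3 in iKO, without overlap (log2 fold change 1.13 ± 0.22, edgeR adjusted p = 0.000859). Adamts7, which cuts COMP, had 1.35, 1.505 and 1.82 CPM in Ctrl and 1.52, 2.43 and 5.69 in iKO, and its log2 difference of 0.91 ± 0.30 (edgeR adjusted p = 0.0231) was lost as a call without iKO 5 (0.60, edgeR adjusted p = 0.0676). Its COMP-cutting relative Adamts12 had an estimate of 0.55 on the log2 scale (edgeR adjusted p = 0.0548). It passed without iKO 4 or without iKO 6 (edgeR adjusted p = 0.0394 and 0.0120), while without iKO 2 its estimate was 0.32 (0.0990). Adamts13, the protease of von Willebrand factor, had 1.21, 1.61 and 1.93 CPM in Ctrl and 1.31, 2.42 and 3.63 in iKO. Its groups overlapped through iKO 2, and its log2 difference of 0.68 ± 0.24 (edgeR adjusted p = 0.0308) was lost as a call without Ctrl 1, Ctrl 3, Ctrl 4, iKO 4 or iKO 5 (edgeR adjusted p from 0.0525 to 0.0776). Adamts10, which acts with fibrillin, gave 0.48 (edgeR adjusted p = 0.0519), and passed without iKO 1 or iKO 6 (edgeR adjusted p = 0.00873 and 0.0362), while without iKO 2 it was 0.28 (0.0812). Adamts18 gave 1.25 (edgeR adjusted p = 0.395), with 5.33 CPM in iKO 2, 1.25 in iKO 3 and at most 0.748 elsewhere.

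The gelatinases, which cut denatured collagen and type IV collagen, missed the threshold. Mmp2 had 32.0, 36.8 and 39.7 CPM in Ctrl and 11.8, 50.7 and 264 in iKO. The highest iKO libraries were iKO 2 and iKO 5 and the lowest was iKO 6, on either side of a narrow Ctrl range (log2 fold change 1.43 ± 0.63, edgeR adjusted p = 0.0866). Without iKO 6 it was 1.66 (edgeR adjusted p = 0.0234), without iKO 2 0.83 (0.246), and without iKO 2 and iKO 5 0.054 (0.921). Mmp9 had 1.22, 1.96 and 2.48 CPM in Ctrl and 0.969, 3.16 and 9.20 in iKO (1.01, edgeR adjusted p = 0.0636), and passed without iKO 1 or without iKO 3 (edgeR adjusted p = 0.0101 and 0.0412), while without iKO 2 it was 0.53 (0.211). Mmp11, known as stromelysin 3 and as a fibroblast product of carcinomas, gave 0.12 (edgeR adjusted p = 0.740) and Mmp23 0.23 (edgeR adjusted p = 0.725). In Mmp23 the median iKO level, 4.21 CPM, was below the Ctrl median of 7.26 although the fitted change was positive, since iKO 2 and iKO 5 stood at 22.2 and 12.6.

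Of the inhibitors, Timp1 and Timp3 had no call. Timp1, a soluble inhibitor that cytokines induce, had 17.4, 18.1 and 24.1 CPM in Ctrl and 12.6, 18.3 and 58.1 in iKO. Its medians were nearly equal (log2 fold change 0.42, edgeR adjusted p = 0.370), and without iKO 2 and iKO 3 the estimate was -0.037. Timp3, which binds to the matrix and also inhibits ADAMTS proteases and ADAM17, had 14.6, 18.8 and 20.5 CPM in Ctrl and 16.1, 20.4 and 69.0 in iKO (0.75, edgeR adjusted p = 0.0986). iKO 2 and iKO 5 were again the highest libraries of both genes. Timp1 and Timp3 lie inside Syn1 and Syn3 on the opposite strand, and 21.3% of the exon bases of Timp3 are shared with Syn3, which had 277 counts in Ctrl and 248 in iKO. Timp4 had 72 counts in all and was not tested. The other genes below the count filter were Adamts16 (110 counts over all libraries), Adamts17 (106), Mmp28 (84), Adamts8 (64), Adamts19 (45) and Mmp21 (16).

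The iKO libraries differed among themselves more for these genes than for most. The median coefficient of variation over the 32 genes was 14.4% in Ctrl and 58.9% in iKO, beside 11.7% and 15.97% over all tested genes. iKO 2 or iKO 5 was the highest iKO library for 23 of the 32 genes (71.9%), against 28.0% of all tested genes, and for 13 of the 14 without a call. Fibroblast markers moved with this: their sum was 196 to 222 CPM in Ctrl, 1608 in iKO 2, 1075 in iKO 5, 298, 318 and 353 in iKO 1, iKO 3 and iKO 4, and 130 in iKO 6. Of the 12 fibroblast markers 10 were tested and 4 (40%) were higher by the edgeR test, beside 25% of all tested genes. Tcf21 was at 0 in every library. Keratinocyte markers summed to 201 CPM in iKO 2 and at most 19.8 in any other library. Adipocyte and skeletal muscle markers summed to 51.2 CPM in iKO 2, 50.2 in iKO 5 and at most 10.3 elsewhere, and pericyte and smooth muscle markers were also highest there (135 and 78.7 CPM). Without iKO 2 and iKO 5, 12 of the 32 genes were higher and 4 lower, with Mmp23 joining the lower ones at -0.93, and the median log2 fold change was 0.25. Over all 16498 genes tested in that setting, 3405 (20.6%) were higher and 2729 (16.5%) lower. The part of RNA from fibroblasts and these other cells in the levels was not tested.

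Other genes of the same proteolytic pathways were read from the same edgeR test. Their counts are to be read beside 25% of all tested genes called higher and 21.4% called lower. Plasmin activates several proMMPs, and of 12 tested genes of plasminogen activation 9 rose and 0 fell (0 also at an unadjusted p of 0.05, by DESeq2 and by limma voom), with Thbd, a thrombin receptor, at 2.30, the urokinase receptor Plaur at 2.07 and urokinase, Plau, at 2.96 on the log2 scale. Among the proprotein convertases, which cut the propeptides of membrane-type MMPs and ADAMTS proteases, 2 of 7 rose and 1 fell, with Furin at 1.16 (edgeR adjusted p = 2.23e-05). Of 13 tested ADAM genes and partners 7 rose and 1 fell: Rhbdf2, which ferries ADAM17 to the surface, rose by 1.67 and Adam23, an ADAM without protease activity, fell by 0.67. The other inhibitors and cofactors held 2 of 7 higher and 1 lower, and Reck, a membrane inhibitor of MMPs, stood at -0.01 (named after its value was seen). This list and the convertases, each with 28.6% higher and 14.3% lower, lay near the shares over all genes. Of 16 tested cathepsins and related genes 12 rose and 0 fell (0 also at an unadjusted p of 0.05, by DESeq2 and by limma voom), led by Ctsb at 1.36, Ctsh at 2.46 and Ctsc at 2.62, all proteases known from macrophages as well as from tumour cells. With the leukocyte covariate, which nearly coincides with group, these counts were mostly lost in the edgeR fit. Calls over all tested genes fell too, to 6.56% higher and 6.84% lower. Plasminogen activation then held 0 higher (0 also at an unadjusted p of 0.05) and 1 lower, with the median log2 fold change going from 0.81 to 0.09. The cathepsin list held 1 higher and 0 lower (3 lower at an unadjusted p of 0.05), with the median going from 0.77 to -0.09. The ADAM genes, convertases and other inhibitors each held 0 higher in that fit, or 1, 1 and 0 at an unadjusted p of 0.05.

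The substrate lists differed in their counts. In the order below they held 70%, 0% and 36.4% higher and 5%, 17.4% and 18.2% lower. Over all tested genes the shares were 25% and 21.4%. Of 20 tested basement membrane genes 14 rose and 1 fell, among them Agrn at 0.47 and Hspg2, which encodes perlecan, at 1.19, while Col4a4 fell by 0.62. Fewer basement membrane genes were higher without iKO 2 and iKO 5 (8), without Ctrl 5 and iKO 1 (9), by limma voom (9) and with the leukocyte covariate (4). Of 23 tested genes of fibrillar collagens and their processing, 0 rose and 4 fell by edgeR; 3 were higher at an unadjusted p of 0.05, DESeq2 called 4 higher and limma voom 0. The lower ones were Col2a1 at -1.48, Serpinh1, the collagen chaperone, at -0.47, Plod2, a collagen lysyl hydroxylase, at -0.24, and Col11a2, a gene beyond the naming rule that was named after its value was seen. The median of that list was 0.67 with all libraries and -0.14 without iKO 2 and iKO 5. Of 11 tested ADAMTS substrates and relatives, 4 rose and 2 fell, with versican, Vcan, at 2.14, and Hapln1, which links proteoglycans to hyaluronan, at -0.99. Without iKO 2 and iKO 5 that list held 1 higher and 3 lower, and its median went from 0.45 to -0.34. It also held 1 higher without iKO 2 and iKO 3 and by limma voom (median -0.02 by voom). With the leukocyte covariate in edgeR it held 0 higher and 0 lower (0 and 0 at an unadjusted p of 0.05). Of all tested genes, 6.56% were then higher and 6.84% lower.

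Among regulators known to act on MMP promoters, more rose than fell. Over all tested genes 25% were called higher and 21.4% lower. Of 14 tested AP-1, ETS and associated factors, 8 rose and 1 fell, with Junb at 1.11 (edgeR adjusted p = 7.81e-06), Runx2, a regulator of Mmp13 in bone, at 2.48, and Fosl2 at 0.97. Of 14 tested cytokines and growth factors known to raise MMP transcription, 9 rose and 0 fell (0 also at an unadjusted p of 0.05 and by DESeq2, 1 by limma voom), with Hgf at 2.77, Tgfb1 at 1.32 and Csf1 at 1.30 on the log2 scale. The ADAMTS-like genes, secreted relatives without protease domains, held 3 of 6 higher and 1 lower, led by Adamtsl4 at 0.77; without Ctrl 5 and iKO 1, without iKO 2 and iKO 5 or by limma voom 2 were higher. With the leukocyte covariate in the edgeR fit, 1 of the transcription factors was higher and 1 lower. Over all tested genes that fit left 6.56% higher and 6.84% lower. The cytokines then held 0 higher and 0 lower (1 and 2 at an unadjusted p of 0.05), their median going from 1.29 to 0.21, and the ADAMTS-like genes 0 and 0 (1 and 1). By limma voom 6 cytokines were higher.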

How the data were processed

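The deposited values were raw counts, whole numbers of reads per gene in 1 table, with 1 column per tumour library, 6 Ctrl and 6 iKO. Gene positions are in mm10, the build that the submitters' processing notes name. Libraries were poly-T selected and not strand specific per the labels' protocols. For the aligner, the counting program and its strand setting, no name is given in the sources read here. Groups were compared with edgeR 4.0.16 in R 4.3.3 (quasi-likelihood, robust, TMM, all 12 libraries, group only) on genes passing a minimum count of 10 and a minimum total of 15, which kept 16164 of 54532 genes with 99.9% of counts. Adjustment was by Benjamini-Hochberg over all tested genes at 0.05. CPM are TMM-scaled, and each SE is the absolute log2 fold change divided by the root of the test's F.

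A count of 0 allows up to 3 counts, or 0.0655 to 0.101 CPM by library. Counts from 1 to 20 were even in 66.7% to 69.3% of cases per library, against 49.6% to 50.9% of counts over 100, so counting intervals may be too narrow. Same-group pairs differed beyond sampling noise (chi-square per degree of freedom 7.47 or more). On simulated counts with 200 of 16164 genes changed, edgeR recovered 46.3%, 71.6% and 97.0% of genes changed by 0.58, 1 and 2 on the log2 scale, with 5.30% false calls. DESeq2 1.42.0 made 15.5% false calls there, and limma 3.58.1 (voom) was the other alternative. The simulation gave each gene the same dispersion in both groups and changed far fewer genes than were called in the data. In the data the median coefficient of variation of the 32 genes was 14.4% in Ctrl and 58.9% in iKO. The simulated rates may therefore not hold for these genes. Exon overlaps came from GENCODE M21, where 44 of the 45 genes had the same start and end.

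The genes and lists were chosen with earlier results of these data known. Every tested gene of the 3 families was named. From each related list up to 3 genes past the threshold with the smallest p could be named. The alternatives left out single libraries and pairs that stood apart, and changed the scaling, filter, tool, block or covariate. The setting without iKO 2 and iKO 5 was chosen after seeing the data.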

Additional observations from a re-analysis of the deposited data

Results flagged for a closer look

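In 5 of 64 groups of 6 libraries, the highest or lowest library lay far from the rest of its group by Dixon's test at the 95% level; chance marks about 1 in 20 groups. Ctrl 5 gave 3 of these. Mmp8 stood at 0.662 CPM in Ctrl 5 against 0.0428 in the next Ctrl library, Mmp14 at 317 CPM against 290, and Adamts5 at 11.3 CPM, below the next lowest at 14.0. The other 2 came from iKO 1, where Mmp8 was at 0 CPM against 2.01 in the next lowest iKO library and Mmp25 at 0.517 against 5.27.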

How the results depend on the processing

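By edgeR, 15 of the 32 genes were higher and 3 lower, and leaving out single libraries gave 12 to 20 higher and 3 to 3 lower (3707 to 4484 and 2671 to 3750 over all genes). The leukocyte covariate moved these counts to 2 and 0, with 1060 and 1105 over all genes. That covariate nearly coincides with group. With all samples kept, estimates turned negative under that covariate for Timp1 (-0.15), Mmp8 (-2.75), Mmp10 (-1.67), Mmp12 (-1.91), Mmp13 (-0.33), Mmp23 (-0.45), Mmp25 (-0.33) and Mmp27 (-0.94), and that of Adamts20 turned positive (0.023). By limma voom, Adamts18 (-1.52), Mmp23 (-0.19) and Mmp11 (-0.0048) turned negative. Without iKO 2 and iKO 3, Timp1 (-0.037), Mmp23 (-0.28), Mmp11 (-0.086) and Adamts18 (-3.02) did. Without iKO 2 and iKO 5, Timp1 (-0.29), Mmp3 (-0.21), Mmp23 (-0.93), Mmp11 (-0.37) and Adamts18 (-0.34) did. Leaving out single libraries, the range crossed 0 for Timp1 (-0.0065 to 0.56), Mmp23 (-0.36 to 0.41), Mmp11 (-0.16 to 0.24) and Adamts18 (-0.66 to 1.51). The cause of these turns was not tested.

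A replicate block by library number gave 12 genes higher and 3 lower (3489 and 2984 over all genes), with Mmp23 at -0.21 and Adamts18 at -0.79. The numbers did not pair the libraries: same-numbered libraries correlated at -0.13 to 0.25 in their deviations from the group means, and 1 of 6 Ctrl libraries correlated best with its own number. DESeq2 called 22 higher and 3 lower (4334 and 3541 over all genes). Without Ctrl 5 and iKO 1 the counts were 18 and 3 (4431 and 3331). Leaving out iKO 2 and iKO 3 gave 12 and 4 (3570 and 2965), with Adamts18 joining the lower genes. Another scaling moved the median of all genes by 0.0087 (RLE) and -0.029 (total counts). Genes under about 1 CPM, such as Mmp8 in Ctrl, rest on few counts.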
